A study of Mus musculus with 57 samples.

Results

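The comparison described here sets the Th2 cells with the most Cyp11a1 transcript against those with the least. Cyp11a1 is the mitochondrial enzyme that cuts the side chain of cholesterol to make pregnenolone. The members were chosen by the measured Cyp11a1 level itself: 54 single cells were ranked by it, and the 14 highest and the 14 lowest were taken, which is 28 of the 56 single cells of the series and of its 57 samples. Cells T3_2 and T3_5 were left out of the ranking by the rule that chose the members. T3_2 had 3096 genes detected, more than 2 of the lowest cells, and T3_5 had 8396, more than any ranked cell. The 26 cells between the groups served as a further set of values that the comparison did not use.

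All cells came from wild-type C57BL/6 mice aged 8 weeks. Splenic CD4+ T cells were activated through CD3 and CD28, driven towards the Th2 fate with IL-4 and anti-IFN-gamma antibody, given IL-2 on day 2, cultured for 5 days and restimulated through the same receptors. Single cells were isolated on a Fluidigm C1, a microfluidic capture system. Every cell received the same treatment, so the highest and lowest cells are groups cut from one culture condition. The remaining sample pooled 10000 cells and is not analysed here. The labels name no separate animals or cultures, so all cells count as 1 sample. No test was run between the groups, and each difference below is a description of these 28 libraries.

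Steroid hormones are made from cholesterol in a chain that starts in mitochondria. StAR-family proteins and their partners on the outer membrane bring cholesterol to the inner membrane, where Cyp11a1 works with electrons passed from NADPH through ferredoxin reductase (Fdxr) and ferredoxin (Fdx1). Pregnenolone is then turned into progesterone by 3-beta-hydroxysteroid dehydrogenases. Adrenal, gonadal and placental cells are the classical site of this chain, and a subset of Th2 cells is also known to make pregnenolone, which has been described as immunosuppressive.

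Cyp11a1 lies on mouse chromosome 9, on the plus strand, and RefSeq (GRCm38.p6) gives it 2 start sites. The 250 bases before each are shown because the level of this transcript defines the groups. Capitals mark matches to the motifs searched on both strands: the nuclear receptor half-site AGGTCA, the GATA factor motif (AGATA or TGATA), the AP-1 motif TGANTCA and the TATA motif TATAA.
Upstream start site, chr9:57997774-57998023: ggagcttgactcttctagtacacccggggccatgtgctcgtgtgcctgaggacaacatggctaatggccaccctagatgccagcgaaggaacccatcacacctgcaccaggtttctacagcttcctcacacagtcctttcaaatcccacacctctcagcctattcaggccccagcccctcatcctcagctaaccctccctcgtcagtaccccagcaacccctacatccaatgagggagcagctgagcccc
Downstream start site, chr9:58014702-58014951: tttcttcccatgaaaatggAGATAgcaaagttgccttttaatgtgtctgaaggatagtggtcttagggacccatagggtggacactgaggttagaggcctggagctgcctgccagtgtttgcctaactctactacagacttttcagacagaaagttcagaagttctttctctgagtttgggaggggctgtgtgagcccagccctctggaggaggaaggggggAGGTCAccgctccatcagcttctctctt
The upstream window held no match to any of the 4 motifs. The downstream window held AGGTCA at -28 to -23 and AGATA at -231 to -227, counted from the start site. Over 32851 RefSeq windows of the same length, AGGTCA was present in 14.02%, the GATA motif in 40.03%, TGANTCA in 6.75% and TATAA in 22.8%. These motifs were chosen with the sequence in view, and a match is a description of letters only. The deposited table has a single value per gene, so the use of the start sites cannot be told apart in these cells.

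Cyp11a1 was abundant and uneven in these cells and ran from listed at 0 to 5891 TPM, a scaled share of transcripts corrected for their length. Its mean over the 54 cells was 1144.67 TPM (SD 1320.69), the 123rd highest mean of the table, and it was detected at 1 TPM or more in 49 of them. The 14 highest cells ran from 1340 to 5891 TPM with a median of 2146.5. The 26 cells between ran from 126 to 1324 TPM with a median of 781, and the 14 lowest from 0 to 104 TPM with a median of 7.5. In the lowest group 5 cells were listed at 0 and 13 were below 100 TPM.

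Neither boundary falls at a gap between cells. The last cell inside the highest group had 1340 TPM and the first outside 1324 TPM, while the lowest group ended at 104 TPM against 126 TPM in the next cell. A wider gap lay inside the group between, from 363 to 126 TPM. Within the highest group 4 cells stood above 4000 TPM: T2_5 (5891 TPM), T3_4 (5092 TPM), T2_1 (4615 TPM) and T5_4 (4602 TPM). The next cell, T4_11, had 2503 TPM. The 14 highest cells held 64.1% of all Cyp11a1 summed over the 54 cells, and the 14 lowest held 0.807%. The left-out cells had 8 TPM (T3_2) and 636 TPM (T3_5).

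**Figure D1:**
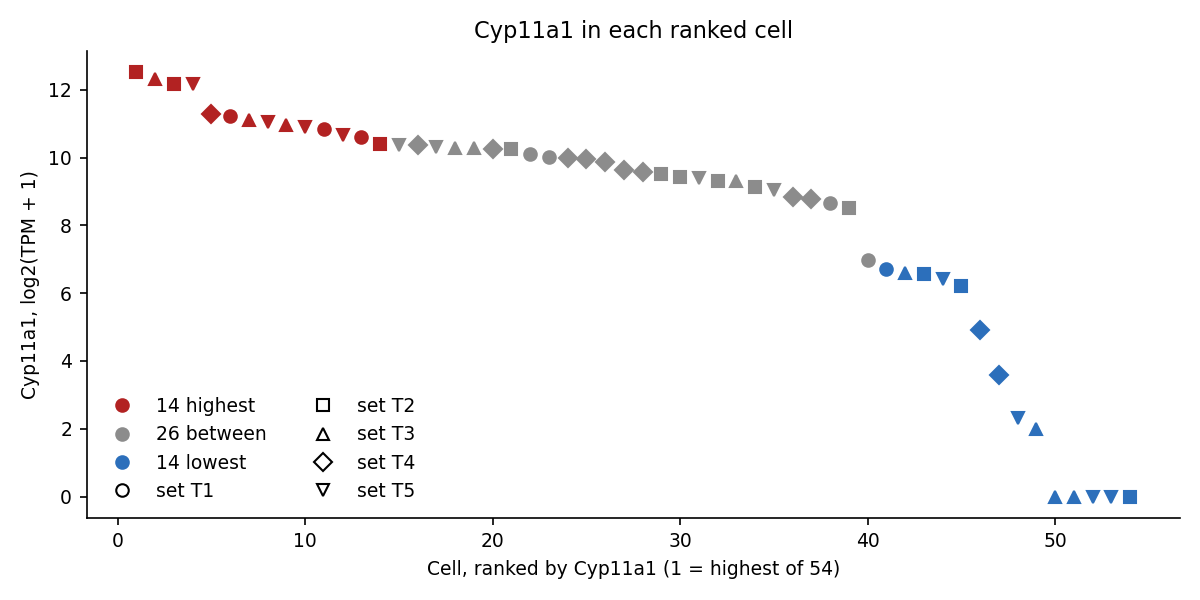
Cyp11a1 in each of the 54 ranked cells, as log2(TPM + 1), from the highest (rank 1) to the lowest. Colour gives the group and marker shape the set T1 to T5; the 5 cells at the right end were listed at 0, and every set has cells at both ends.

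Each of the sets T1 to T5, a number in the sample titles that no source used here explains, had cells in both groups. T1 had 3 of the highest and 1 of the lowest cells, T2 had 3 and 3, T3 had 3 and 4, T4 had 1 and 2, and T5 had 4 and 4. The median Cyp11a1 level of a set lay between 659.5 TPM (T2) and 1061 TPM (T1), so no set was uniformly high or low.

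The median number of genes detected per cell was 433 higher in the highest cells than in the lowest. The highest cells had 3710 to 5481 genes at 1 TPM or more (median 4737.5), the lowest 2679 to 5377 (median 4304.5) and the cells between 3978 to 6983 (median 4903). The ranges of the highest and lowest cells overlap, but 4 of the lowest cells, T4_3 (2679 genes), T3_3 (2906), T2_12 (3380) and T3_1 (3666), had fewer genes than any of the highest. By set, the medians of highest and lowest cells were 4765 and 4446 in T1, 4804 and 4166 in T2, 3888 and 3884 in T3, 4760 and 3256 in T4, and 4516 and 4854 in T5, where the order turned. Over all 54 cells the Spearman rho of Cyp11a1 with genes detected was 0.10, a weak relation. Values without these 4 cells are given below for the genes and lists that the comparison turns on. Read depth cannot be recovered from TPM, so it is unknown for every cell. The 10 most abundant genes took a median of 13.3% of all TPM in the highest cells and 11.7% in the lowest.

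**Figure D2:**
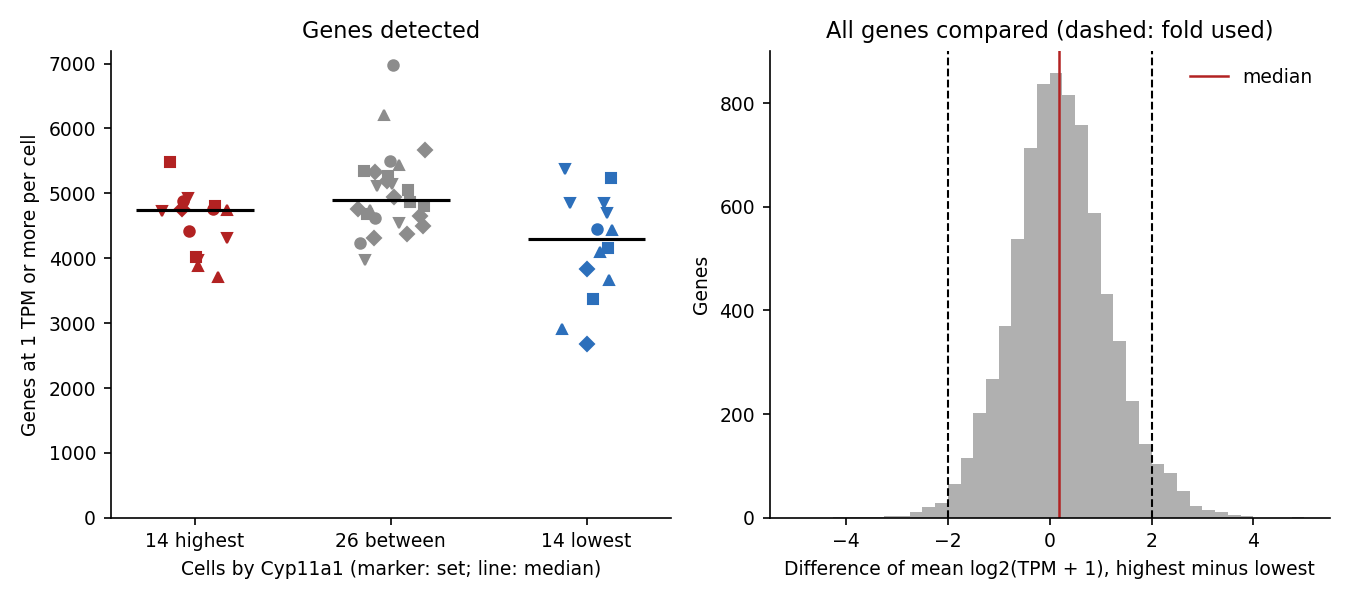
Left, genes detected at 1 TPM or more in each cell by group (marker shape: set; line: median); the lowest cells reach further down, to 2679 genes. Right, number of genes by difference of mean log2(TPM + 1), highest minus lowest cells, for 7641 genes; the red line is their median, 0.18, and the dashed lines mark differences of 2 and -2.

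Markers of Th2 and T cells were found in both groups, though not each in every cell. Gata3, the master regulator of the Th2 fate, was detected in all 14 highest and all 14 lowest cells. Il4 was listed at 0 in the lowest cells T3_3 and T4_3, and at 2 to 9 TPM in T4_7, T5_2, T3_1 and T2_12. The T cell receptor subunit Cd3d and the adhesion receptor Cd2 were also detected in all cells of both groups. Few markers of other cell types were in the table. Of 13 B cell markers, 1 was in the table (Cd74, detected in 7 highest and 5 lowest cells), and its level reached 526 TPM in the highest and 672 TPM in the lowest cells. Of 16 myeloid markers, 2 were in the table (Cst3 and Cd68), with a summed median of 569.5 TPM in the highest and 392 TPM in the lowest cells; almost all of that is Cst3, which was detected in all 54 cells, T cells included. Of 14 mast cell and basophil markers, 3 were in the table, and their sum reached 5 TPM in the highest and 7 TPM in the lowest cells. Cd8b1, the only one of 9 CD8 T and NK cell markers in the table, was at 0 in all 54 cells. Of 10 erythroid and platelet markers only Alas2 was in the table, with a highest value of 16 TPM in the highest and 101 TPM in the lowest cells. Star, the only one of 12 adrenal and gonad markers in the table, was listed at 0 in all 28 cells.

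Apart from Cyp11a1, the largest differences between the groups were in Mrpl2, Sptlc1 and Mmp10 on the higher side and Dusp1, Gart and Asns on the lower, gene models left out. Differences were taken between means of log2(TPM + 1), highest minus lowest cells, for the 7641 genes detected in at least 10 of the 54 cells. A gene is called past the fold at a difference of 2 or more on that scale, which is 4-fold. Of the 7641 genes, 303 (3.97%) were higher past the fold in the highest cells and 70 (0.916%) were lower, 4.88% in all. The median difference over all genes was 0.18, and 58.4% of genes had a difference above 0. No gene separated the groups completely: 0 of 7641 genes (0%) had all of one group above all of the other. Of the 373 genes past the fold, 191 stayed past it whichever single cell was left out.

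The surplus of higher genes moved with the 4 lowest cells of few genes. Without them 230 genes were higher and 240 lower past the fold, and the median difference of all genes was 0.003. With the linear fit of each gene on genes detected removed, 182 were higher and 120 lower. Counts of genes in a list are set below against the 3.97% and 0.916% of all genes. Whether the number of genes detected had a part in any one difference was not tested.

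The largest difference of a named gene was in Mrpl2, a protein of the large subunit of the mitochondrial ribosome. Mrpl2 ran from 0 to 879 TPM in the highest cells (median 118, detected in 13 of 14), from 0 to 314 TPM in the cells between (median 19.5) and from 0 to 64 TPM in the lowest cells (median 0, detected in 4). The highest cells were above the lowest in 90.3% of all pairs of cells, ties counting 0.5, though the ranges overlap. The difference was 4.81 on the log2(TPM + 1) scale, 4.30 without the 4 lowest cells of few genes, and above 0 in each of the 5 sets. It lay between 2.78 and 6.95 over 20 alternative settings.

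Sptlc1, a subunit of the enzyme that starts sphingolipid synthesis, followed with a difference of 3.94. Its median was 46 TPM in the highest cells, where 11 of 14 had it, and 0 in the lowest, where 3 had it. Mmp10, a secreted matrix metalloproteinase, reached 18700 TPM in the highest cells (lowest 1, median 446) against at most 1044 TPM in the lowest (median 2). Its difference was 3.90, and its pairs were less one-sided than those of Mrpl2, with the highest cell above in 72.4%. The cells between had a median of 188.5 TPM of Mmp10 and reached 7233 TPM.

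The rest of the 15 largest differences, from 3.36 to 3.82, mixed signalling and organelle genes. Smad2, which carries signals of the TGF-beta family to the nucleus, had a median of 57.5 TPM in the highest cells and 0 in the lowest (difference 3.74). Mapk11, a p38 MAP kinase, was listed at 0 in all 14 lowest cells and detected in 8 of the highest, up to 279 TPM. It was also detected in 11 of the 26 cells between. Hmox2, the constitutive haem oxygenase, was detected in 8 highest cells and 1 lowest cell, with a difference of 3.36.

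Arl8b, a GTPase that positions lysosomes, was detected in all 14 highest cells (4 to 806 TPM, median 371.5) and in 10 lowest cells (0 to 616 TPM, median 11.5). Bysl, a factor for assembly of the small ribosomal subunit, was likewise detected in all 14 highest cells (median 163 TPM) and in 7 lowest (median 1 TPM). Sdhd, a membrane anchor of respiratory complex II, had medians of 335 and 15 TPM. The others were Mettl10, a lysine methyltransferase (difference 3.82), Spag7 (3.78), the aminopeptidase Xpnpep1 (3.67), Commd4 (3.56), the mitochondrial protein Msto1 (3.47) and the ubiquitin-like Ubl7 (3.41). Each of these 15 genes stayed past the fold whichever single cell was left out, and also without the 4 lowest cells of few genes. Within sets the difference turned for Mettl10 (-3.39 in T4), Bysl (-3.38 in T1), Xpnpep1 (-1.69 in T1), Hmox2 (-1.23 in T5) and Smad2 (-0.25 in T3). Xpnpep1 was also at 0 in T4, and the others were above 0 in each of the 5 sets. These values rest on few cells, with 1 lowest cell in T1 and 1 highest in T4.

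The genes with the largest differences in the other direction included a stress-signal phosphatase and several synthesis enzymes. Dusp1, which switches off MAP kinases, ran from 0 to 194 TPM in the highest cells (median 1) and from 0 to 1342 TPM in the lowest (median 119.5), with a median of 16.5 TPM between. Its difference was -4.01, the largest in this direction, and -3.22 without the 4 lowest cells of few genes. Of the 26 immediate early genes compared, only Dusp1 passed the fold in either direction, against 0.916% of all genes lower. Without the 4 lowest cells of few genes 2 of the 26 were lower past it, as were 240 of all 7641 genes.

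Gart, an enzyme of purine synthesis, was detected in all 14 lowest cells at 33 to 620 TPM (median 313), and in the highest cells it ran from 0 to 456 TPM (median 7.5). Asns, the enzyme that makes asparagine, had a median of 9 TPM in the highest cells (0 to 370) and 327 TPM in the lowest (0 to 1536). Both differences were -3.82. The cells between were nearer to the highest cells for Gart (median 18.5 TPM) and nearer to the lowest for Asns (180.5 TPM).

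Cox7a2l, an assembly factor of respiratory supercomplexes, had medians of 14 TPM in the highest and 177 TPM in the lowest cells. The highest cell was above the lowest in 15.8% of pairs, the lowest share among the 30 genes with the largest differences. The cells between sat with the lowest group, with a median of 188.5 TPM. Herpud1, a component of the degradation of misfolded endoplasmic reticulum proteins, had medians of 5.5 and 391.5 TPM (difference -3.11). The remaining genes were Mif4gd (-3.45), the glycosylation enzyme Alg8 (-3.14), the coenzyme A enzyme Ppcdc (-3.06), Mkln1 (-2.80), Snx17 (-2.78), the kinase Pim2 (-2.76), Naa25 (-2.73), Crlf3 (-2.68), the Mediator kinase Cdk8 (-2.65) and G6pdx (-2.65). Ppcdc was detected in 0 highest, 7 between and 6 lowest cells, so it entered the comparison only through the cells where it is high. Without the 4 lowest cells of few genes its difference was -1.80. Gart, Cox7a2l, Herpud1 and Mkln1 were below 0 in each of the 5 sets, and Ppcdc was at 0 in T1. Within sets the largest turns were in Pim2 (5.37 in T4), Snx17 (4.36 in T4), Asns (3.36 in T4), Dusp1 (2.00 in T1), Cdk8 (1.81 in T1) and G6pdx (1.51 in T1). Mif4gd, Alg8, Naa25 and Crlf3 were also above 0 in a set, by at most 0.97.

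**Figure D3:**
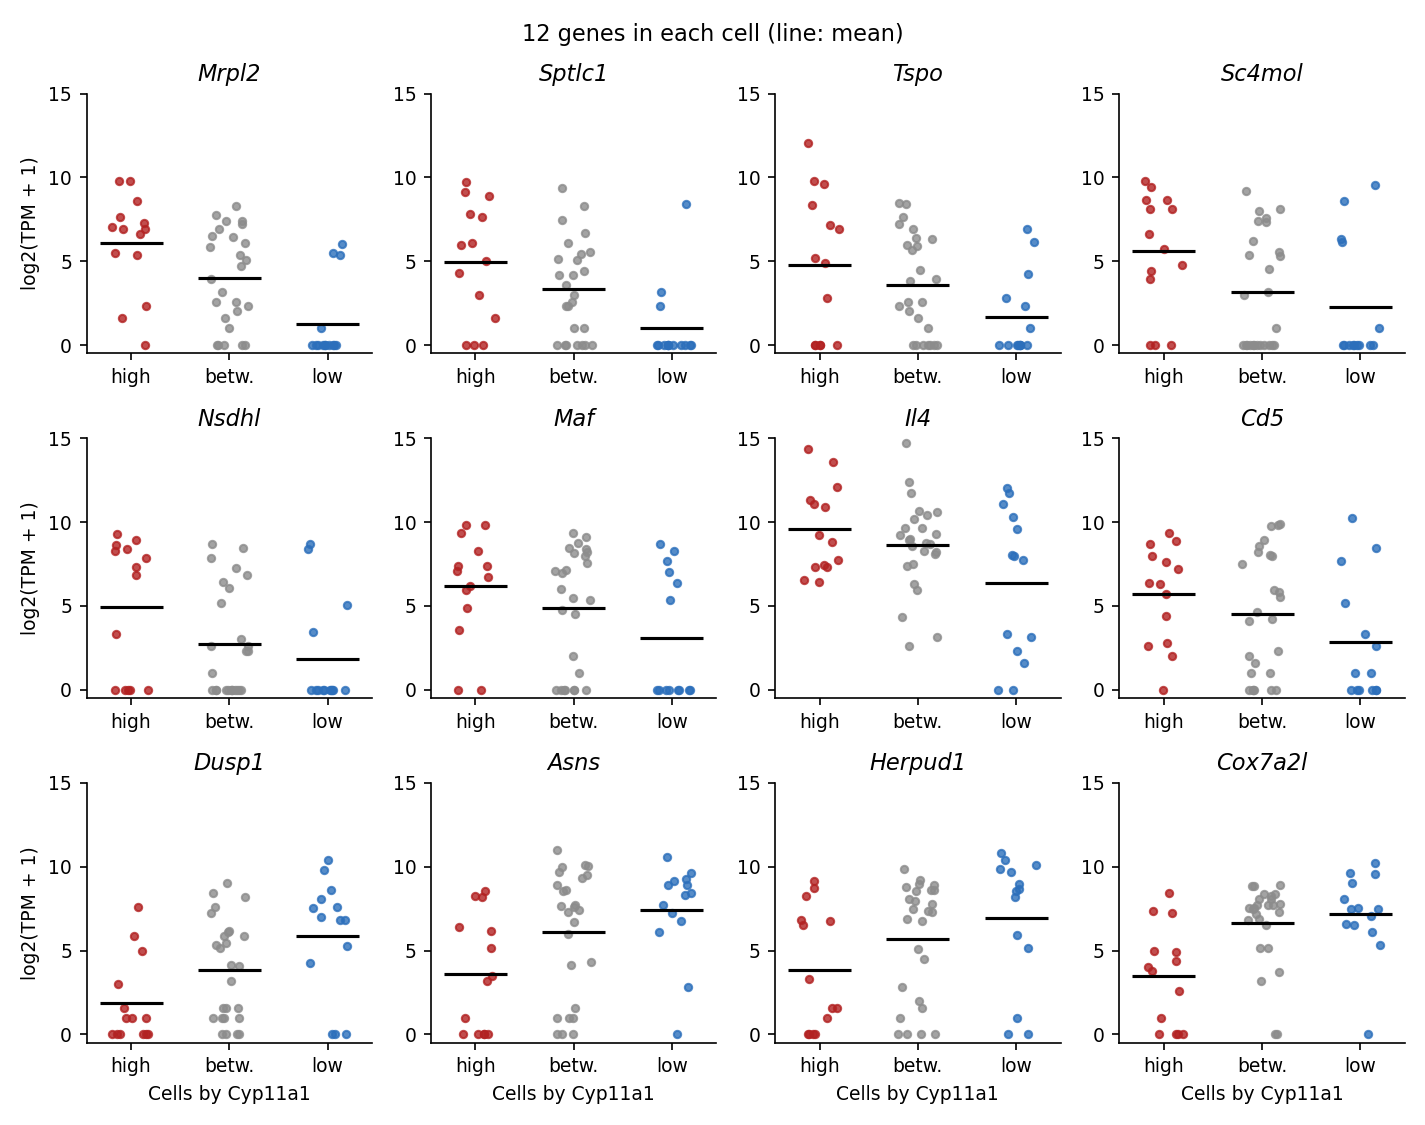
Level of 12 genes in each cell, as log2(TPM + 1), for the highest (red), between (grey) and lowest (blue) Cyp11a1 cells; the line is the group mean and dots are spread sideways for view only. In all 12 the groups overlap, and many cells are listed at 0.

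Among the genes of the steroid pathway 1 besides Cyp11a1 differed past the fold over the 28 cells. Of 39 list genes 21 were in the table, and 15 besides Cyp11a1 were detected in enough cells to compare. Of these, 1 was higher past the fold and 0 lower, against 3.97% and 0.916% of all genes, and the list median was 0.40 against 0.18 for all genes. Without the 4 lowest cells of few genes 3 were higher past the fold (Tspo 2.84, Srd5a3 2.53 and Stard4 2.08), and 8 of the 15 were below 0. Of these 3, Srd5a3 was detected in enough cells to compare only with the highest cells counted. Of all 7641 genes, 230 were higher past the fold in that setting. Without set T4 the list median was -0.08. The gene past the fold over the 28 cells was Tspo, an outer-membrane protein that binds cholesterol. Tspo ran from 0 to 4179 TPM in the highest cells (median 32, detected in 9) and from 0 to 122 TPM in the lowest (median 0, detected in 6), a difference of 3.09. It was detected in 19 of the 26 cells between, with a median of 9 TPM.

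The direct partners of Cyp11a1 were scarce in both groups. Fdx1, the ferredoxin, was detected in 2 highest, 18 between and 2 lowest cells, with a difference of 0.42. Fdxr, the ferredoxin reductase, was detected in 1 highest and 1 between cell and in 0 lowest cells. Star was detected in 2 between cells, at up to 69 TPM. None of these genes passed the filter and the fold together.

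Cholesterol carriers and later enzymes gave mixed values. Stard4, a soluble cholesterol carrier, was detected in 6 highest and 1 lowest cell (difference 1.89). Srd5a3, a polyprenol reductase of the steroid reductase family, was detected in 7 highest, 8 between and 1 lowest cell (1.90). It thus entered the comparison only through the highest cells. Stard3, the late endosomal cholesterol carrier, was detected in 7 and 5 cells (0.40). Hsd3b7, the one 3-beta-hydroxysteroid dehydrogenase with a value here, was detected in 1 highest cell, 1 between and 0 lowest, and its known substrates are bile acid precursors. Hsd17b12 and Hsd17b10, which are broadly expressed and also serve fatty acid metabolism, were high in both groups. Hsd17b12 had medians of 334 TPM in the highest and 364.5 TPM in the lowest cells, and Hsd17b10 had 160.5 and 271 TPM. The cytochrome b5 genes Cyb5 (0.61) and Cyb5b (0.76), and the reductase Por (-0.36), also did not pass the fold. Hsd11b1, which regenerates active glucocorticoid, was detected in 2 highest and 3 lowest cells and in 11 between (difference -0.35).

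The proteins that bring cholesterol into mitochondria had a list median of 0.35, against 0.18 for all genes. Of 17 compared, 2 were past the fold, both higher, against 3.97% of all genes higher. Besides Tspo this was Tomm40, the pore of the outer-membrane protein import complex. Tomm40 was low in level but frequent: the highest cells ran from 0 to 120 TPM (median 7.5, detected in 12), the lowest from 0 to 7 TPM (median 0, detected in 5), a difference of 2.49. The highest cell was above the lowest in 84.4% of pairs, and the difference was above 0 in each of the 5 sets. The channel genes Vdac1 (0.08), Vdac2 (-0.05) and Vdac3 (-1.43), the acyl-CoA binding protein Dbi (1.19) and the import receptor Tomm22 (-0.00) did not pass the fold. Atad3a, an inner-membrane ATPase, had a difference of -1.50.

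For uptake and storage of cholesterol, 1 of 14 genes compared was higher past the fold and 0 lower, against 3.97% and 0.916% of all genes. Npc2, which hands cholesterol from lysosomal lipoproteins to Npc1, was detected in all 14 highest cells at 37 to 763 TPM (median 288). In the lowest cells it ran from 0 to 530 TPM (median 109.5), a difference of 2.40, 1.88 without the 4 cells of few genes and 1.99 without T5_9 alone. Npc1 was detected in 4 highest and 1 lowest cell (0.69), the cholesterol esterification enzyme Soat1 in 7 and 3 (0.74) and the lipoprotein receptor Scarb1 in 3 and 2 (0.90).

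Cholesterol synthesis had more genes past the fold than the steroid list. Of 20 genes compared, 4 were higher past the fold and 0 lower, against 3.97% and 0.916% of all genes. Differences of 16 were above 0, where 58.4% of all genes had one above 0. The list median was 0.58, 0.39 above that of all genes. Without the 4 lowest cells of few genes 3 of the 20 were higher past the fold, as were 3 of the 15 steroid genes. Of all 7641 genes, 230 were higher past it in that setting. The median of the cholesterol synthesis list was then 1.02 above that of all genes, and with 27 cells a group it was 0.02 below it. The 4 genes, Sc4mol, Nsdhl, Cyp51 and Ebp, all act after lanosterol, the first sterol of the route.

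Sc4mol, the sterol C4-methyl oxidase, was detected in 11 highest cells (median 75 TPM, up to 877) and 5 lowest (median 0, up to 745), a difference of 3.32. Nsdhl, which acts with it in removing the C4 methyl groups, was detected in 9 and 4 cells (medians 138 and 0 TPM, difference 3.10). Cyp51, the lanosterol demethylase, was detected in 9 and 5 cells, up to 185 and 24 TPM (2.39). Ebp, the sterol isomerase, was detected in 10 and 6 cells, with medians of 44.5 and 0 TPM (2.33, 1.64 without the 4 cells and 1.97 without T3_4 alone).

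Within the 26 cells between, Sc4mol had a Spearman rho with Cyp11a1 of -0.36, Nsdhl -0.20, Cyp51 0.05 and Ebp -0.11. Fdps, which makes farnesyl pyrophosphate, had the lowest difference of the list, -1.84. The sterol regulators Srebf2 (-0.38), Srebf1 (0.51), Insig1 (0.15) and Scap (1.59) did not pass the fold.

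Of 24 list genes for regulators of Cyp11a1 in endocrine cells, 15 were in the table and 13 were compared. The genes compared were those of cyclic AMP signalling and the Nr4a receptors, so other regulators are not covered. Of the 13, 0 were past the fold in either direction. Over all genes 4.88% passed it. The list median, 0.18, was that of all genes, and its sign was kept in 12 of 20 alternatives. Without the 4 lowest cells of few genes 2 of the 13 were lower past the fold, as were 240 of all 7641 genes. The list median in that setting was -0.30, against 0.003 for all genes. With 18 cells a group it was -0.52, against 0.13 for all genes. The cyclic AMP response factor Creb1 was detected in 5 highest and 8 lowest cells (difference -1.58) and Crem in 6 and 8 (-1.16). Nr4a1, an immediate early nuclear receptor, had medians of 0.5 TPM in both groups but reached 42 TPM in the highest and 2354 TPM in the lowest cells (-1.78). The protein kinase A genes Prkaca (0.72), Prkacb (1.13) and Prkar1a (0.63) were slightly higher in mean. Of the phosphodiesterases that break down cyclic AMP, Pde4b had a difference of 1.38 and Pde4d of -1.65.

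Among 9 genes for steroid receptors and their partners, 1 was higher past the fold and 0 lower, against 3.97% and 0.916% of all genes. Pgrmc2, a membrane progesterone receptor component, was detected in 9 highest and 4 lowest cells, with medians of 15.5 and 0 TPM (2.10, and 1.81 without T5_3 alone). It passed the fold in 12 of 20 alternatives, which include the detection filters and tie order that leave a difference unchanged. Its relative Pgrmc1 had medians of 4 and 17.5 TPM and a difference of -1.33. Without the 4 lowest cells of few genes 2 genes of the list were lower past the fold, as were 240 of all 7641 genes. Nr3c1, the glucocorticoid receptor, was detected in 11 and 9 cells and had a difference of 0.15. The retinoid X receptor Rxrb had the lowest difference of the list, -1.44.

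The Th2 cytokines split between both directions. Of 11 compared, 1 was higher past the fold and 0 lower, against 3.97% and 0.916% of all genes. Differences of 5 were above 0 and of 6 below, and the list median was -0.13, a sign kept in 8 of 20 alternatives. Without set T2 it was 1.53 with 3 genes higher past the fold, and with 10 cells a group 8 genes were above 0, 4 higher and 1 lower past the fold. Of all 7641 genes, 377 were higher past the fold without T2, and 402 higher and 189 lower with 10 cells a group. Il4, the defining cytokine of the Th2 fate, ran from 84 to 21171 TPM in the highest cells (median 514) and from 0 to 4195 TPM in the lowest (median 230.5). All 14 highest cells and 12 lowest cells had it, and the cells between ran level with the highest, with a median of 464 TPM. The Il4 difference was 3.23 over the 28 cells and 1.34, under the fold, without the 4 lowest cells of few genes.

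Il10, an anti-inflammatory cytokine, had medians of 1155.5 and 150.5 TPM (difference 1.91, and 0.51 without the 4 cells). Il13, which acts on airway epithelium and mucus, was detected in 10 highest, 17 between and 3 lowest cells (1.32). Its level stayed at or below 233 TPM in the highest cells and 484 TPM in the lowest. Il5, the eosinophil growth factor, was detected in 4 and 2 cells (0.73). Il24 was high in both groups, with medians of 1151.5 and 1090 TPM. The cytokines with differences below 0 were Il6 (-1.38), Il3 (-0.97), Il9 (-0.66), Il31 (-0.49), Csf2 (-0.32) and Areg (-0.13). Il3 reached 37192 TPM in the highest and 80859 TPM in the lowest cells from medians of 25.5 and 15.5 TPM, so a few cells carry most of its mean.

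Of 24 Th2 regulators and receptors, 1 was higher past the fold and 0 lower, against 3.97% and 0.916% of all genes. Maf, a transcription factor that binds the Il4 promoter, was detected in 12 highest cells (median 118.5 TPM, up to 923), 19 between (median 53.5 TPM) and 6 lowest (median 0, up to 404). The Maf difference was 3.07, and 1.83, under the fold, without the 4 lowest cells of few genes. Gata3 had 245 to 2178 TPM in the highest cells (median 1191.5) and 175 to 1918 TPM in the lowest (median 578.5), a difference of 0.92 that was above 0 in each of the 5 sets. Within the 26 cells between, the rho of Gata3 with Cyp11a1 was -0.07. Il2ra (1.18), the secreted protein Ecm1 (1.65), Bhlhe40 (1.66) and the chemokine receptor Ccr8 (1.01) had differences above 0, and Batf (-1.93) and Il4ra (-1.26) the lowest. Batf, a partner of Irf4 in T cell differentiation, had medians of 75.5 TPM in the highest and 347 TPM in the lowest cells.

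Over the 28 cells all 19 genes of T cell identity had differences above 0, where 58.4% of all genes did. Only 1 passed the fold, against 4.88% of all genes. That gene was Cd5, a brake on receptor signalling, with medians of 81 and 1 TPM and a difference of 2.89 (3.38 without the 4 lowest cells of few genes). Without the 4 cells 17 of 19 were above 0, with the groups taken within each set 16, and without set T2, T3 or T4 15. The list median was 0.84, which is 0.65 above that of all genes, and it stayed 0.40 to 0.92 above it over 20 alternatives. Cd2 had medians of 2426 and 1042.5 TPM (1.46), and the phosphatase Ptprc, the smallest difference of the list, 859 and 723.5 TPM (0.16).

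The list of survival and apoptosis genes also lay above all genes, with 18 of 22 above 0 and a median of 0.91. Against 3.97% of all genes, 2 of the list were higher past the fold. One of them was Bcl2l1, which protects cells from apoptosis, with medians of 89.5 and 10 TPM (2.42, and 1.87 without the 4 cells). The list median sat 0.01 below that of all genes when set T5 was left out. Of 10 genes of naive and memory T cells, 9 were above 0, and Il7r, the interleukin-7 receptor, was higher past the fold (medians 108 and 35.5 TPM, difference 2.20, 1.31 without the 4 cells and 1.86 without T3_1 alone). Over all genes 58.4% were above 0 and 3.97% higher past the fold.

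**Figure D4:**
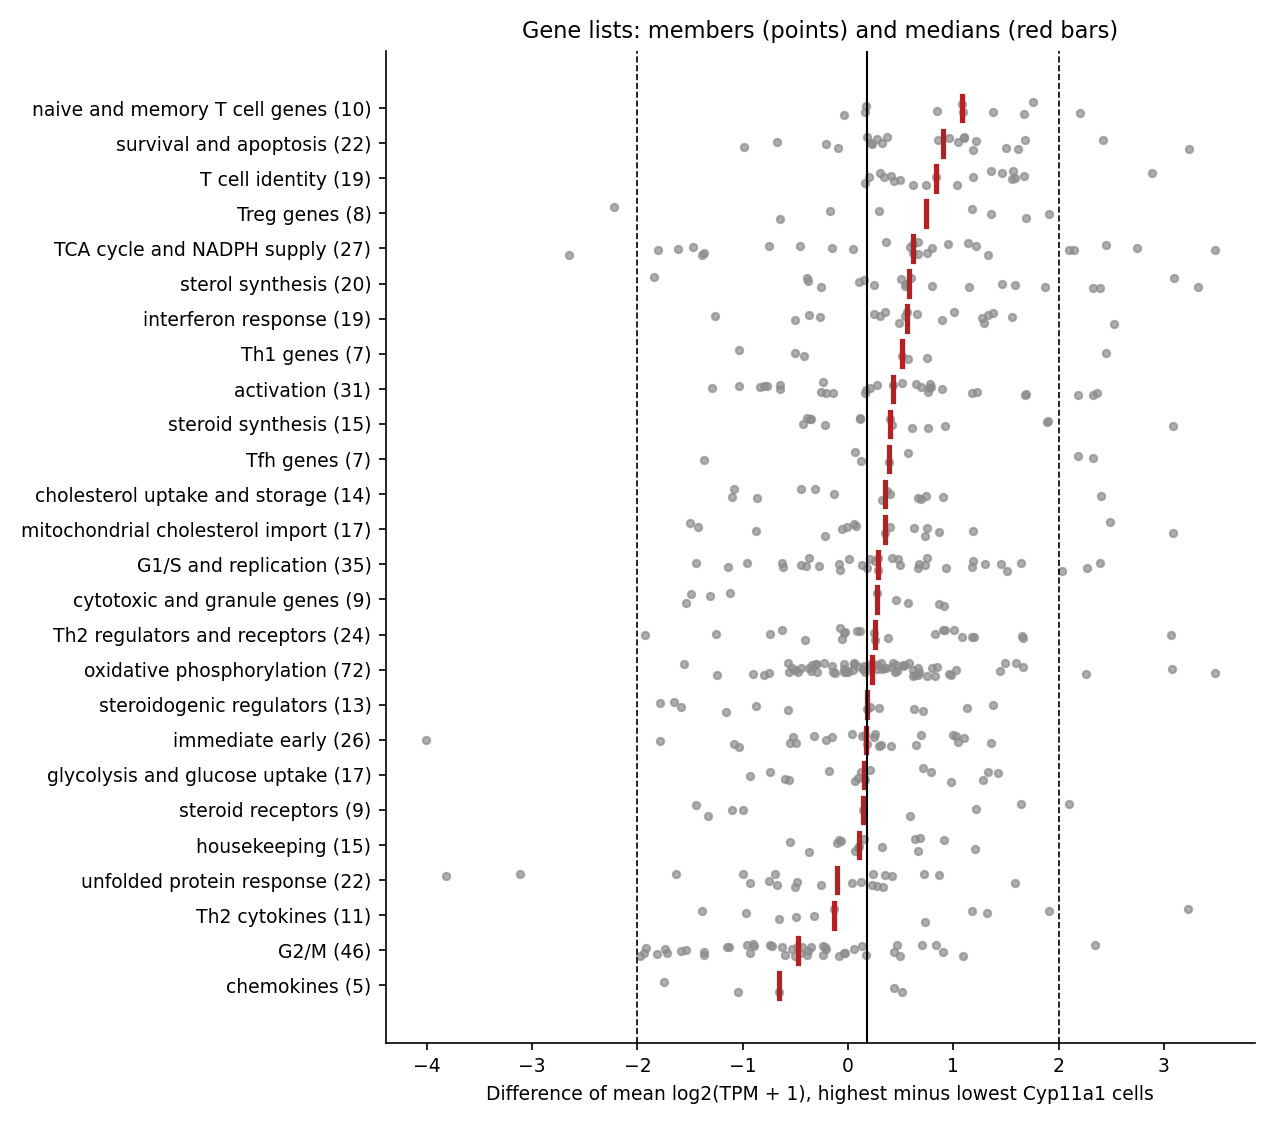
Difference of mean log2(TPM + 1), highest minus lowest Cyp11a1 cells, for each compared gene (points) of 26 lists, ordered by the list median (red bar); the number of genes compared stands in parentheses. The solid line is the median of all 7641 genes, 0.18, and the dashed lines mark 2 and -2; most genes lie inside them in every list.

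In mitochondrial metabolism the counts differed with the cells compared. Of 27 genes of the citric acid cycle and NADPH supply, 5 were higher past the fold and 1 lower, against 3.97% and 0.916% of all genes. With 10 cells a group 3 were higher and 6 lower, without set T1 3 and 3, without T2 3 and 4, and with the groups taken within each set 2 and 2. Of all 7641 genes, 402 were higher and 189 lower with 10 cells a group. Without T1 these counts were 334 and 123, without T2 377 and 171, and within sets 268 and 66. The 5 were Sdhd (3.49), Fh1, the fumarase (2.74), the isocitrate dehydrogenase subunit Idh3b (2.45), the oxoglutarate dehydrogenase subunit Dlst (2.15) and the malate dehydrogenase Mdh1 (2.10), and the values without the 4 lowest cells of few genes were 3.28, 3.03, 2.40, 2.08 and 2.48. Dlst was under the fold without T5_3 alone (1.74) and Mdh1 without T2_12 alone (1.61). G6pdx, which feeds the pentose phosphate pathway and makes cytosolic NADPH, was the gene past the fold in the other direction. It was detected in 5 highest and 9 lowest cells, and its difference was -2.65. Of 72 genes of oxidative phosphorylation, 3 were higher past the fold (Sdhd, Ndufs7 at 3.08 and Uqcrc2 at 2.26, which was 1.86 without T5_9 alone) and 0 lower, near the 3.97% of all genes, with a list median of 0.23.

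Genes of the unfolded protein and amino acid stress response gave 0 genes higher and 2 lower past the fold of 22 compared, against 0.916% lower over all genes. These were Asns and Herpud1, given above. Atf4, the factor that drives Asns, had a difference of -1.63 and did not pass the fold, and the chaperone Hspa5 had 0.28. The list median was -0.11, and 11 of the 22 genes were below 0.

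Genes of mitosis lay mostly below 0 over the 28 cells, but not when the groups were taken within each set or held 10 cells. Of 46 G2/M genes, 35 had differences below 0, where 58.4% of all genes were above it, and the list median was -0.47. The tubulin Tubb2c was the 1 gene higher past the fold, against 3.97% of all genes (2.35, and 0.95 without the 4 lowest cells of few genes). Cdca3, a trigger of mitotic entry, had the lowest value, -1.98, and was detected in 1 highest and 6 lowest cells. Without the 4 lowest cells of few genes 43 of 46 were below 0 and 11 were lower past the fold. In that setting 240 of all 7641 genes were lower past it, and the median of all genes was 0.003. With the highest and lowest cells taken within each set, the list median was 0.24, and with 10 cells a group it was 0.22. For 35 genes of G1/S and replication the list median was 0.29. Against 3.97% of all genes, 3 were higher past the fold (Gins2, Mcm7 and Rfc3). Of these 3, Mcm7 was under the fold without T3_8 alone (1.95) and Rfc3 without T5_11 alone (1.65).

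The 26 cells between the groups were not used by the comparison, so the ranking inside them gives separate values for the same genes. Over these 26 cells, 49.5% of the 303 higher genes had a Spearman rho with Cyp11a1 above 0, against 48.97% of all genes. Of the 70 lower genes, 52.9% had a rho below 0, against 50.98% of all genes. The median rho was -0.005 for all genes, -0.005 for the higher genes and -0.019 for the lower. The shares of both sets of genes were thus near the background, over a middle range of Cyp11a1 that spans 126 to 1324 TPM.

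**Figure D5:**
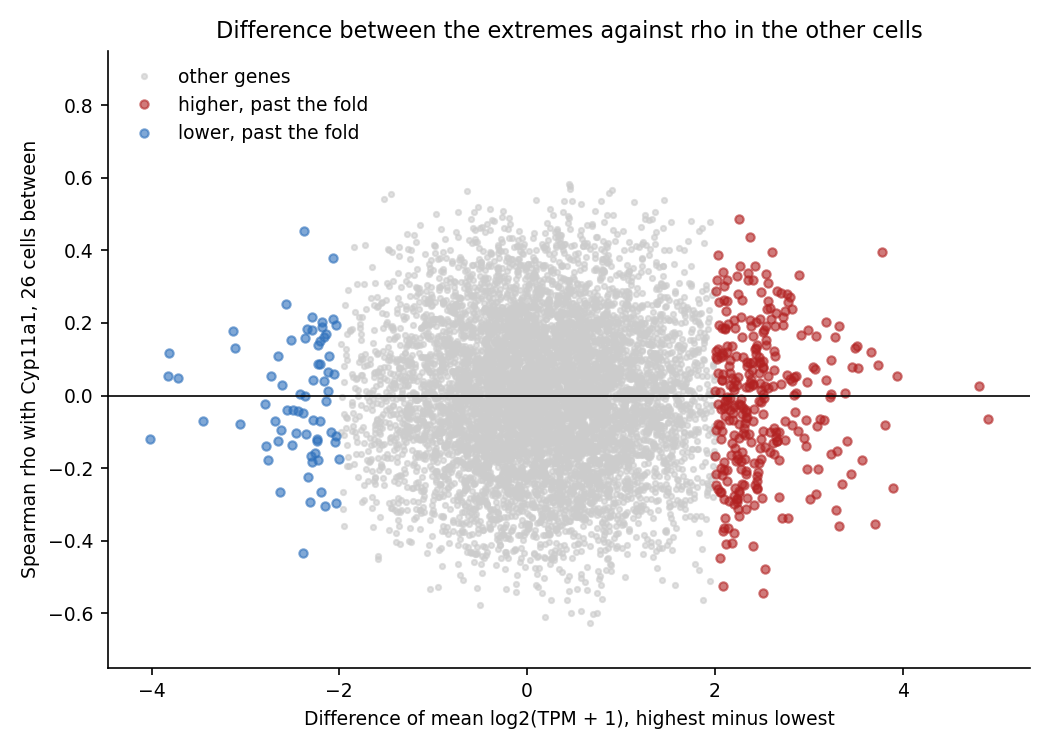
Each point is 1 of the genes compared: its difference of mean log2(TPM + 1), highest minus lowest cells, against its Spearman rho with Cyp11a1 over the 26 cells between. Genes past the fold (red higher, blue lower) scatter to both sides of a rho of 0, as the other genes (grey) do.

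Over all 54 cells, and with gene models left out, the genes whose ranks were most like that of Cyp11a1 were Rfx5 and Mrpl2, each with a Spearman rho of 0.51. Rfx5, a subunit of the factor that switches on MHC class II genes, was detected in 7 highest cells, 6 between and 0 lowest, at no more than 69 TPM. It entered the comparison only through the highest cells. The next were Lrig2 (0.45), Spry2 (0.44), Ube2q1 (0.44), Hs3st1 (0.43), Sptlc1 (0.43), Rnf4 (0.43), Gimap5 (0.42) and Gtf3c1 (0.42). Lrig2 (detected in 7 highest, 8 between and 0 lowest cells) and Hs3st1 (6, 5 and 0) likewise passed the 10-cell filter only with the highest cells.

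Gimap5, a GTPase needed for survival of T cells, was detected in all 14 highest cells at 19 to 1503 TPM (median 373.5) and in 11 lowest cells at up to 823 TPM (median 80). Rnf4, a SUMO-targeted ubiquitin ligase, was detected in all 14 highest cells (median 414 TPM) and 11 lowest (median 80 TPM). Spry2, an inhibitor of receptor tyrosine kinase signalling, was detected in 12 and 4 cells with medians of 5 and 0 TPM. The lowest rho values were those of Dus4l, Cox7a2l and Mtmr2 (-0.42 each) and Mib1 and Oxsr1 (-0.41 each). Oxsr1 was detected in 0 highest, 9 between and 7 lowest cells, so it passed the detection filter only with the lowest cells counted. In all, 16 genes had a rho of 0.4 or more and 6 of -0.4 or less. The points are single cells whose labels name no separate cultures or capture runs, so no p-value was attached.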

How the data were processed

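RNA was measured in 56 single Th2 cells. The deposited values are a score: TPM rounded by the authors to whole numbers, seen in the values and in cell totals of 999202 to 999914. Per the submitters' processing notes, mm9 was the build, and FastQC, Bowtie 0.12.2 and Cufflinks were used; their roles are not given. A value of 0 can be a transcript lost in capture, so genes are described as listed at 0. Of 10565 symbols, 9501 were current in GRCm38.p6, 948 older and 116 unmatched. No 2 cells held identical values (0 pairs).

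A gene was detected at 1 TPM or more. Means of log2(TPM + 1) were compared with Python 3.11.15, numpy 2.4.6, pandas 2.3.3 and scipy 1.17.1. The calculation was tested on simulated data. No p-value, standard error or interval was made from cells. Named genes were the 15 largest and 15 smallest differences (gene models left out), the steroid, cholesterol and Th2 lists, in other lists the genes past the fold and up to 4 others, and the 10 highest and 5 lowest rho. Some list genes are not reported here. Hspa5 and Atf4 were picked after their values were seen. The members, the lists and the left-out cells were chosen with earlier results of these data known. Alternatives changed the pseudocount, detection filter, fold, group size, sets, scaling, summary and cells used.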

Additional observations from a re-analysis of the deposited data

How the results depend on the processing

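No paired analysis was possible because the cell numbers are only names and pair no highest cell with a lowest one; sets were treated by taking the groups within each. The 14 highest and 14 lowest cells gave 303 genes higher and 70 lower past the fold. Pseudocounts of 0.1 and 10 gave 867 and 324, and 21 and 6. Folds of 1 and 3 on the log2 scale gave 1445 and 721, and 38 and 8. With 10, 18 and 27 cells a group, 402, 155 and 39 genes were higher and 189, 29 and 10 lower. Leaving out a set gave 123 (T1), 171 (T2), 175 (T3) and 152 (T4) lower genes, and without T5 752 were higher and 107 lower. The linear fit on genes detected gave 182 and 120, the difference of medians 787 and 322, and leaving out the 4 lowest cells of few genes, chosen after seeing the data, 230 and 240. With T3_2 and T3_5 kept, 383 were higher and 59 lower. With the groups taken within each set, 268 were higher and 66 lower, of which 173 and 32 were the same genes. Leaving out each cell in turn gave 280 to 362 higher and 69 to 102 lower genes. In no setting did a gene past the fold appear past it in the other direction. The difference in genes detected was 433, from 54 with 27 cells a group to 787.5 without set T5. Of 1296 alternative values of 65 called genes, 1058 kept their direction and their side of the fold, 237 kept the direction only, and Sc4mol with 27 cells a group changed sign (-0.0041). The detection filters leave a gene's difference unchanged, and reversing the order of ties gave the same groups. Their values were thus bound to be among the 1058. With Pearson's r in place of rho, 15 genes were at -0.4 or less, where rho gave 6. The cause of these changes was not tested. The table holds no depth, so a value of 0 carries no limit.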

Other observations

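The genes around Cyp11a1 on chromosome 9, a set chosen after values were seen, lay mostly inside the fold. Of the 20 protein-coding genes on each side in the order of GRCm38.p6 (40 in all), 18 were compared: 13 had differences above 0, with a median of 0.85, 1 was higher past the fold and 1 lower. Over all genes 58.4% were above 0, the median was 0.18, and 3.97% were higher and 0.916% lower past the fold. The higher gene, Ubl7, lies 2 genes away. Its level was 15 to 999 TPM in the highest cells, detected in all 14, and 0 to 226 TPM in the lowest, and all 26 cells between also had it (median 194 TPM), with a rho of -0.12 there. The lower gene, Ppcdc, lies 18 genes away. Sema7a, the next gene on one side, had a difference of 0.72, and Stra6, a retinol transporter 2 genes away on the other, 1.81.

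Lists of other T helper fates gave few genes past the fold, where 3.97% of all genes were higher and 0.916% lower. Of 8 regulatory T cell genes, 0 were higher past the fold and 1, Ebi3, a subunit of interleukin-35, was lower (-2.22, -1.78 without the 4 lowest cells of few genes and -1.74 without T4_3 alone). Of 7 follicular helper genes, 2 were higher, the costimulatory receptor Icos (2.33, 1.36 without the 4 cells and 1.87 without T3_1 alone) and the inhibitory receptor Pdcd1 (2.19, 1.82 without the 4 cells and 1.79 without T5_11 alone). These 2 and Zbtb32, a repressor of cytokine genes (2.37), were the 3 genes past the fold of 31 activation genes. Of 7 Th1 genes, Il12rb1, a subunit of the interleukin-12 receptor, was higher (2.45), and it was 1.99 without cell T1_2. Of 19 interferon response genes, Ifi47 was higher (2.53, and 1.46 without the 4 cells). Of 5 chemokine genes, 9 cytotoxic and granule genes, 17 glycolysis genes and 15 housekeeping genes, 0 passed the fold in either direction; their list medians were -0.66, 0.28, 0.15 and 0.10.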
